A study of Homo sapiens with 4 samples.

Results

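The STAT factors STAT2, STAT3, STAT5A, STAT5B and STAT6, the feedback genes CISH, SOCS2 and SOCS3 and the kinase JAK1 were read from RNA-seq of HepG2, a long-established cell line from a human liver tumour. These 9 genes were found by their symbols among the 44591 genes of each table, and all 9 carried enough counts to be tested. The 4 libraries came from cells that received either the control siRNA siNC or siLINC01186, an siRNA against the long noncoding RNA LINC01186 (also called SALIS), with 2 libraries per group. Both groups passed 6 h without serum after transfection and were then kept for 24 h with serum. By the study's account the siNC was the same in both repeats and the siRNA against LINC01186 was a different oligo in each, and which oligo went into which library is not in the labels. The study linked LINC01186 to STAT5A, so the comparison asks whether the RNA of STAT5A and its pathway differed after transfection.

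Cytokines and growth factors bind receptors that carry Janus kinases such as JAK1, and the kinases phosphorylate STAT proteins, which pair up, enter the nucleus and switch on genes. CISH, SOCS2 and SOCS3 are among the genes that STATs switch on, and their proteins block the receptor or the kinase, so the pathway is limited by its own output. In liver cells, STAT5A and STAT5B respond to growth hormone, STAT3 to interleukin-6, STAT6 to interleukin-4 and interleukin-13, and STAT2 to interferons. Much of this control is exerted on the STAT proteins by phosphorylation, which RNA-seq does not measure.

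Promoters were searched for TTCNNNGAA, the palindromic motif to which STAT dimers bind, in the 250 bases before the start. CISH, a textbook STAT5 target, held 4 copies and is printed because no other gene among the 9 with a promoter in the table held any. Its window lies on the minus strand at chr3:50611775-50612024 of GRCh38.p14 (RefSeq), and capitals mark the motifs.
CISH: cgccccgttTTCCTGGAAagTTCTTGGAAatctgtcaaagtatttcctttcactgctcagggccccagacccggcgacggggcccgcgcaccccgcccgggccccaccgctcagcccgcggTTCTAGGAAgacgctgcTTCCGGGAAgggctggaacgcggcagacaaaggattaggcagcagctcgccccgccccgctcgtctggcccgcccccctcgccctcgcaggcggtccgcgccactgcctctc
The copies begin 241, 230, 129 and 112 bases before the start. At least 1 copy was found in 6.57% of the 35116 promoters in the table, at least 2 in 0.356% and 4 in 5 promoters, those of CISH, ZNF112, ZNF225 and LOC124907892. STAT2, STAT3, STAT5A, STAT5B, STAT6, SOCS3 and JAK1, with 1 to 3 promoters each, held 0 copies, as did IGFBP3, a gene that the study placed under STAT5A. For IGFBP3 the study reports a predicted STAT5A site in the promoter region and STAT5A binding there by ChIP-PCR. Whether that site lies within these 250 bases, or has this exact motif, was not examined. A match describes the letters of this window and is not a measured binding site.

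STAT5A and STAT5B are neighbours that share stretches of sequence, and part of their reads could have been assigned to either. In hg19, the build that the submitters' processing notes name, STAT5B lies at chr17:40351195-40428424 on the minus strand, STAT5A at chr17:40439565-40463961 on the plus strand and STAT3 at chr17:40465343-40540513 on the minus strand. Between the longest coding transcripts of GENCODE release 29, the longest identical stretch ran for 429 bases within the coding sequence of STAT5A. Its first 150 bases, at positions 1206 to 1355 of the STAT5A transcript, are printed because they stand in both genes letter for letter.
STAT5A and STAT5B: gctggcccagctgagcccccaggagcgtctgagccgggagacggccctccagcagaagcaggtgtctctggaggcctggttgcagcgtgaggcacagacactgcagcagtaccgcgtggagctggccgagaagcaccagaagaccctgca
Of all 75-base windows, 9.96% of those in STAT5A also stood in STAT5B, and 8.37% of those in STAT5B also stood in STAT5A. The study states paired reads of 150 bases, longer than these windows, and the share for whole read pairs was not computed. How the authors' counting treated such reads is not given in the sources used here, so the split of counts between these genes is uncertain.

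The counts summed to between 14968958 and 17297245 per library, and 3 counts, taken as the lowest level a library can show, were between 0.169 and 0.210 counts scaled to the library size (CPM). The targeted RNA itself was at 15 and 14 counts under siNC and at 12 and 14 counts in the libraries labelled siLINC01186. No fall of LINC01186 was thus detectable at this depth (log2 fold change -0.12, standard error 0.53, adjusted p = 1.00, edgeR). By qPCR the study reports a knockdown of LINC01186 by siRNAs in HepG2 cells. The hepatocyte markers went against the label of the line. Of 10 such markers, 8 had at most 3 counts in both libraries of replicate 1, and ALB (albumin) was read at 0 and 15 counts in replicates 1 and 2 of siNC and at 0 and 14 counts in those of siLINC01186. This order of the 4 libraries is kept below. HNF4A, a liver transcription factor, was measured at 79, 161, 83 and 188 counts. Without HNF4A the summed level of the markers was at most 0.490 CPM in replicate 1 and at least 5.46 CPM in replicate 2. Of 12 markers of other cells, 9 were above 3 counts in all 4 libraries, with a summed level of 349 to 460 CPM, while PTPRC and CD3E of blood cells had 0 counts in replicate 1. KRT7, a keratin of duct cells, stood at 365, 265, 348 and 233 CPM. In bulk RNA, fewer cells of a type and less RNA per cell cannot be told apart.

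**Figure D1:**
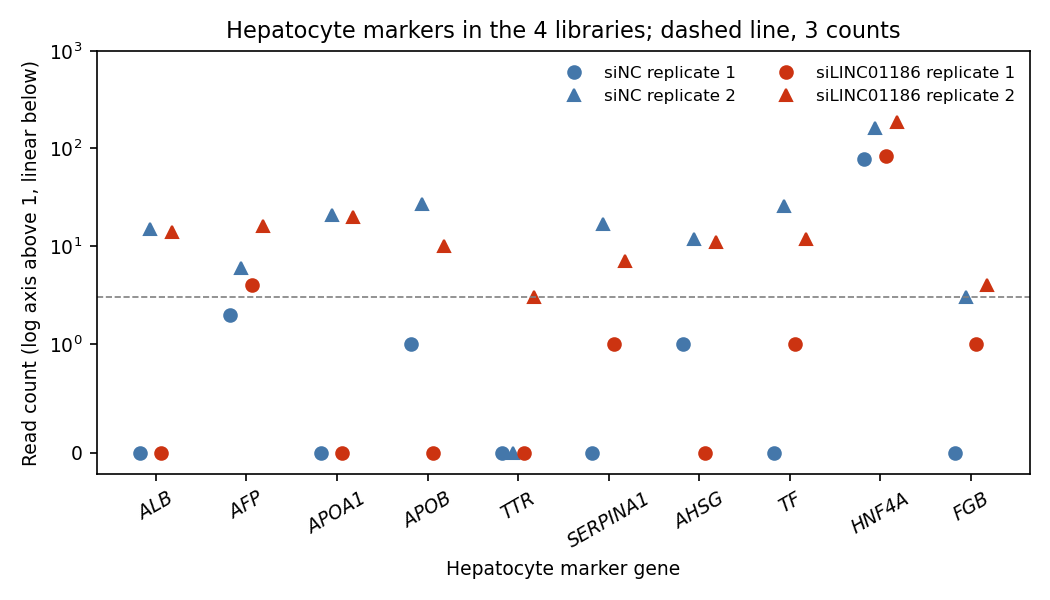
Read counts of 10 hepatocyte markers (horizontal axis) in the 4 libraries, on an axis that is logarithmic above 1 and linear below, with a dashed line at 3 counts. In replicate 1, 8 of the 10 markers lie at or below the line in both libraries, and HNF4A lies at 79 counts or more in all 4 libraries.

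The STAT genes were expressed well above most genes, and the SOCS2 and CISH feedback genes stood lowest. Levels of different genes are given in TPM, the count scaled by gene length and library, as the authors deposited them. In the siNC libraries the order was STAT3 at 86.4 ± 0.304 TPM (SD, n = 2 here and below), STAT5B at 77.1 ± 5.59, STAT6 at 64.2 ± 11.0, STAT5A at 64.2 ± 0.351, SOCS3 at 51.6 ± 10.8, JAK1 at 42.8 ± 9.72, STAT2 at 22.4 ± 3.85, CISH at 7.08 ± 0.163 and SOCS2 at 6.37 ± 0.664. STAT3 stood at percentile 95.6 of all genes in the table and SOCS2 at percentile 75.3. Over the 2 siNC libraries the ranges of STAT6 and STAT5A overlapped, as did those of SOCS3 and JAK1. The ranges of neighbours over all 4 libraries were separate at 2 places, between JAK1 and STAT2 and between STAT2 and CISH. Within each single library every gene stood above the next in this order, except that STAT6 was above STAT5A in 3 of the 4. The level of STAT5B was 1.14, 1.26, 1.32 and 1.40 times that of STAT5A in the 4 libraries. What the shared stretches add to these ratios was not computed.

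**Figure D2:**
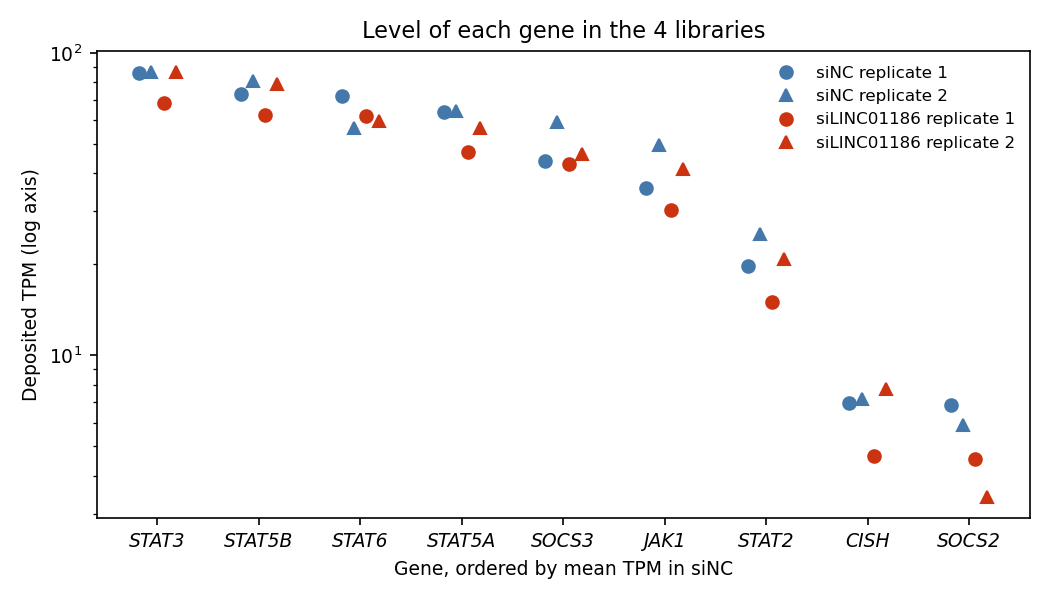
Deposited level in TPM (vertical axis, log scale) of the 9 genes in each of the 4 libraries, with 1 point per library. STAT3 stands highest in the siNC libraries at 86.4 TPM and SOCS2 lowest at 6.37 TPM, and JAK1, STAT2 and CISH lie apart from each other in every library.

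None of the 9 genes was called between siLINC01186 and siNC by a test over all genes, with edgeR or with DESeq2's Wald test. With p-values from edgeR's quasi-likelihood fit, adjusted over 23942 genes by Benjamini-Hochberg, 0 of 9 were called at an adjusted p under 0.05, against 0% of all genes tested, and at an unadjusted p under 0.05 again 0 of 9, against 1.21%. At the limits that the study states for its calls, a log2 fold change beyond 1 with an unadjusted p under 0.05, 0 of 9 passed, against 0.756%. The smallest adjusted p among the 9 was 1.00. The libraries of the groups did not overlap for 2 of 9, STAT5A and SOCS2, against 26.0% of all genes, so a share near the background. The median log2 fold change of the 9 was -0.04, against 0.00 over all genes tested, and the median absolute change was 0.09, against 0.11 over the 10957 genes of at least the lowest mean level among the 9.

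STAT5A, the factor that the study places with LINC01186, had 2217 and 2127 counts in siNC and 1664 and 2177 in the libraries labelled siLINC01186. Scaled to library size these were 132, 132, 116 and 122 CPM. Both siLINC01186 libraries were below both siNC libraries, which nearly coincided. The fold change was 0.905, with a 95% interval from 0.685 to 1.19 (log2 -0.14, standard error 0.18, adjusted p = 1.00, edgeR). The interval spans lower and higher levels, and within replicates 1 and 2 the log2 difference was -0.18 and -0.10.

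STAT5B, which carries the growth hormone signal in liver together with STAT5A, stood at 172, 188, 175 and 195 CPM. Replicate 2 was higher than replicate 1 in both groups, and the groups overlapped (log2 fold change 0.04, interval -0.37 to 0.45). STAT3, the factor of the interleukin-6 family, stood at 197, 196, 187 and 208 CPM, with the siNC libraries between the siLINC01186 libraries. Its log2 fold change was 0.00 with an interval from -0.40 to 0.41. STAT6, the interleukin-4 factor, stood at 142, 110, 145 and 123 CPM. Here replicate 1 was the higher in both groups, and the fold change was 1.07 (interval 0.773 to 1.47). STAT2, which joins IRF9 in the interferon complex, stood at 41.3, 52.1, 37.5 and 46.0 CPM. It was lower in siLINC01186 within both replicate numbers, by log2 differences of -0.14 and -0.18, and the groups overlapped, with replicate 2 above replicate 1 in each (fold change 0.895, interval 0.646 to 1.24).

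Among the feedback genes SOCS2, whose protein limits growth hormone signalling, had the largest difference of the 9, and it did not pass the test. It had 207, 170, 140 and 115 counts, or 12.4, 10.5, 9.80 and 6.47 CPM. Both siLINC01186 libraries were below both siNC libraries, and replicate 2 was below replicate 1 in each group. The fold change was 0.709 with an interval from 0.449 to 1.12 (log2 -0.50, standard error 0.29, adjusted p = 1.00, edgeR). Without siLINC01186 replicate 2 the log2 fold change was -0.24 and without siLINC01186 replicate 1 it was -0.82. CISH, the gene with the 4 motifs, had 122, 120, 83 and 151 counts, or 7.28, 7.43, 5.81 and 8.50 CPM. The siNC libraries lay between the siLINC01186 libraries, and the log2 difference was -0.32 in replicate 1 and 0.19 in replicate 2 (log2 fold change -0.04, interval -0.72 to 0.64). SOCS3, which is induced by STAT3 and blocks the interleukin-6 receptor complex, stood at 55.5, 73.9, 64.7 and 61.4 CPM, with opposite log2 differences of 0.22 and -0.27 within the replicate numbers.

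JAK1, the kinase upstream of these factors, stood at 92.3, 126, 92.9 and 112 CPM. In replicate 1 the groups were nearly level, and the siLINC01186 library was lower in replicate 2, with log2 differences of 0.01 and -0.18. The fold change was 0.937 with an interval from 0.669 to 1.31. Within the replicate numbers, 3 of the 9 genes were lower in siLINC01186 in both (STAT2, STAT5A and SOCS2), 2 were higher in both (STAT5B and STAT6) and 4 had opposite signs. Of all genes tested, 26.6% were lower in both and 27.2% higher in both.

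**Figure D3:**
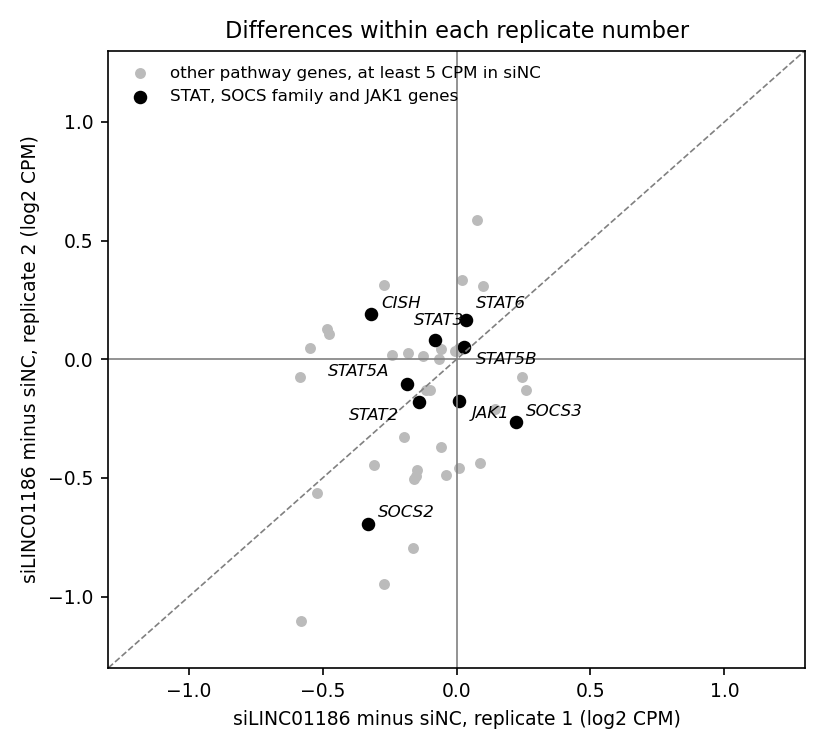
Difference in log2 CPM between siLINC01186 and siNC within replicate 1 (horizontal axis) and within replicate 2 (vertical axis) for the 9 genes and the other pathway genes of at least 5 CPM in siNC. SOCS2 lies lowest of the 9 at -0.33 and -0.69, and CISH and SOCS3 lie on opposite sides of 0 in the replicates.

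The deposited TPM gave another picture of direction, because the scale itself differed between the groups. All 9 genes had a lower mean TPM in siLINC01186, with log2 ratios from -0.68 for SOCS2 to -0.08 for STAT6. The median log2 ratio of 21084 genes on this scale was -0.17, against 0.00 in CPM scaled by TMM, a scaling that trims extreme genes. One gene of the table, MIR6087, took 1.16% and 1.91% of all TPM in siNC and 13.8% and 8.69% in siLINC01186. With that gene left out and the rest rescaled, 7 of the 9 were lower, and STAT5B went from -0.12 to 0.02 and STAT6 from -0.08 to 0.07. STAT5A went from -0.31 to -0.16 and SOCS2 from -0.68 to -0.52, so both remained lower on each scale.

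**Figure D4:**
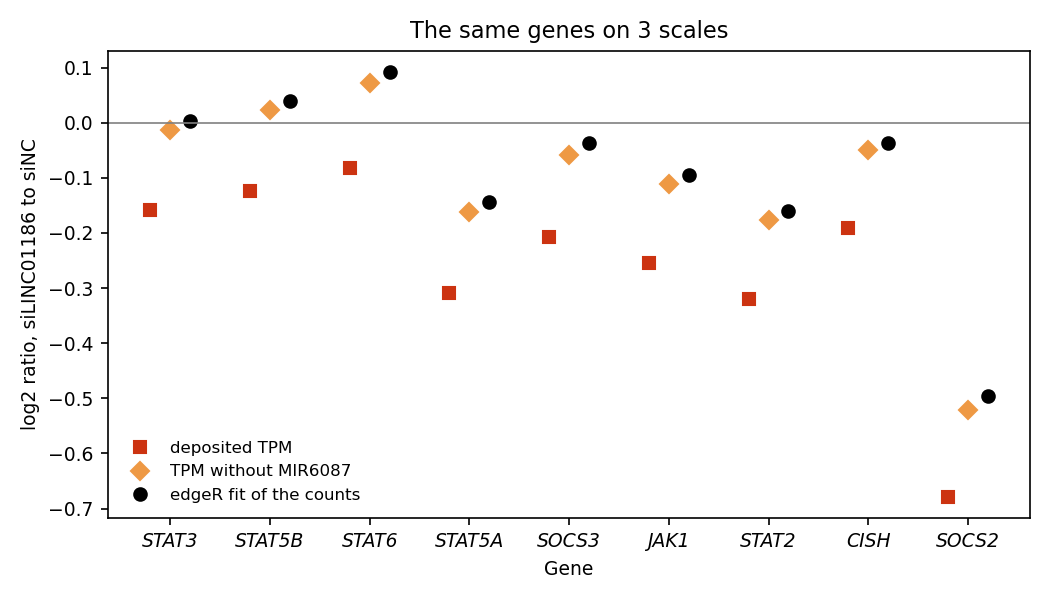
Log2 ratio of siLINC01186 to siNC for the 9 genes (horizontal axis) on 3 scales, the deposited TPM, the TPM without MIR6087 and the edgeR estimate. All 9 points of the deposited TPM lie below 0, and without MIR6087 STAT5B and STAT6 lie above it.

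Between the numbered replicates, a fit with the group as a second term called 2 of the 9 genes at an adjusted p under 0.05 (edgeR). This share is near the background of 17.5% of all genes tested. JAK1 was higher in replicate 2, with a log2 difference of 0.45 in siNC and 0.26 in siLINC01186 (fitted 0.36, standard error 0.12, adjusted p = 0.0161, edgeR). STAT6 was lower in replicate 2, with differences of -0.37 and -0.24 (fitted -0.30, standard error 0.11, adjusted p = 0.0416, edgeR). STAT2 at 0.32 (adjusted p = 0.0853, edgeR) and SOCS2 at -0.40 (adjusted p = 0.123, edgeR) had differences of like size that did not pass. STAT5A, at 0.03 with an interval from -0.19 to 0.25, was the most even of the 9. Both calls were lost by DESeq2's Wald test, with an adjusted p of 0.207 for JAK1 and 0.276 for STAT6, and by edgeR without the group term (adjusted p = 0.0809 and 0.134). STAT6 was also lost with edgeR's expression filter (adjusted p = 0.0741) and with all genes of at least 1 count (adjusted p = 0.0531). The study describes the repeats as biological, and the labels give no day or culture for a replicate number. The hepatocyte markers moved with it. Of 9 that could be tested, 7 were higher in replicate 2 (adjusted p under 0.05, edgeR), against 7.96% of all genes. HNF4A lost its call by DESeq2's Wald test (adjusted p = 0.0899). For some others of these markers that test gave no adjusted p, so it does not decide their calls. Without HNF4A the listed markers had at most 27 counts in a library. The part of these markers in the differences of JAK1 and STAT6 was not tested. The oligo differed between the repeats of siLINC01186 and cannot be told apart from the replicate number there.

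**Figure D5:**
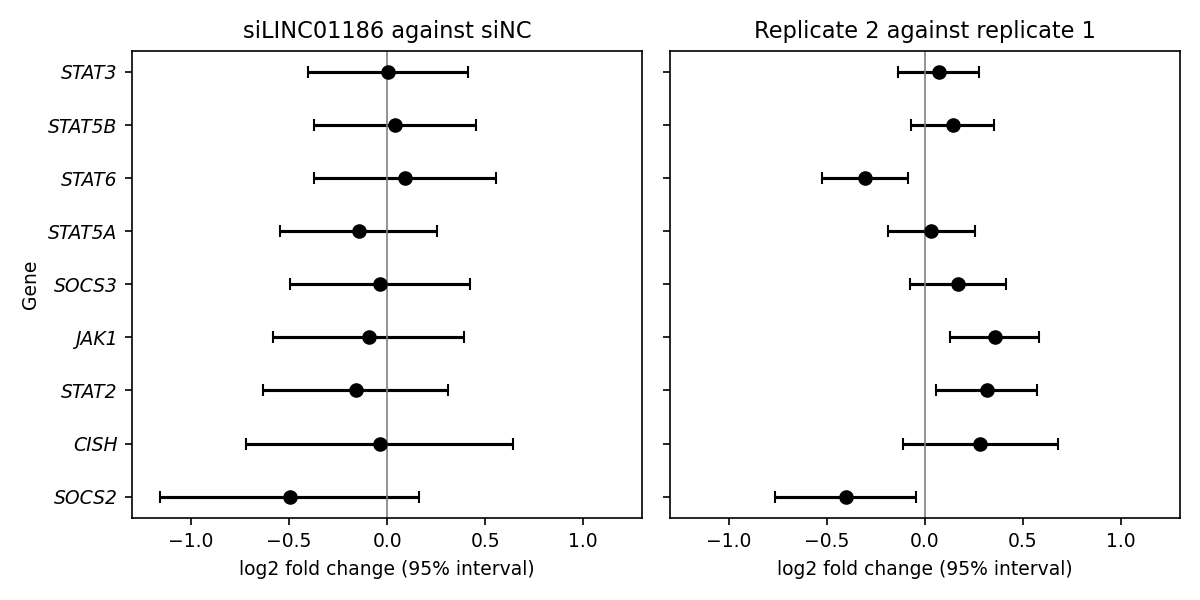
Log2 fold change with its 95% interval for the 9 genes, for siLINC01186 against siNC and for replicate 2 against replicate 1 (edgeR). Every interval of the first comparison includes 0, from SOCS2 at -0.50 to STAT6 at 0.09. In the second, the intervals of JAK1 at 0.36, STAT2 at 0.32, STAT6 at -0.30 and SOCS2 at -0.40 lie apart from 0. Of these, only JAK1 and STAT6 had an adjusted p under 0.05.

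The rest of the pathway was measured from lists of 55 other STATs, kinases, SOCS and PIAS proteins, phosphatases, receptors and ligands, of which 46 could be tested. By group, in the fit without a block, 0 of these 46 were called at an adjusted p under 0.05 (edgeR), against 0% of all genes, and 1 had an unadjusted p under 0.05, against 1.21%. This was LIFR, the leukemia inhibitory factor receptor. LIFR, which signals through JAK1 and STAT3, stood at 189, 174, 132 and 118 CPM, lower in both siLINC01186 libraries (log2 fold change -0.54, standard error 0.18, adjusted p = 1.00, edgeR). Its ligand LIF stood at 47.0, 34.1, 39.8 and 34.5 CPM, and IL11, another ligand of this family, at 23.0, 15.0, 15.3 and 6.92 CPM. IL11 was lower in siLINC01186 within both replicate numbers and lower in replicate 2 in both groups, and by group it did not pass (log2 fold change -0.78, adjusted p = 1.00, edgeR). Of the 46 genes, 17 were lower in siLINC01186 in both replicates and 5 higher in both, against 26.6% and 27.2% of all genes, with a median log2 fold change of -0.12. These genes were chosen with results known and the counts were not tested.

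The growth hormone and prolactin receptors, through which STAT5 is activated, were at or near 0 counts. GHR had 2, 0, 1 and 2 counts and PRLR 0, 0, 1 and 1, both at or under the 3-count floor, and these were chosen after their values were seen. EPOR, the erythropoietin receptor, stood at 11.5, 22.9, 12.7 and 19.8 CPM, higher in replicate 2 in both groups (log2 0.82, adjusted p = 9.76e-06, edgeR). OSMR, a receptor subunit that pairs with the signal chain shared by the interleukin-6 family, stood at 159, 171, 159 and 124 CPM. Of 15 ligands, 8 had at most 3 counts in every library and 3 had 0 counts in every library, which allows up to 0.210 CPM.

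Of the other SOCS genes and kinases, SOCS7 and JAK3 were called between the replicates, and none was called between the groups (edgeR without a block). SOCS5 stood at 36.4, 39.3, 32.5 and 22.6 CPM, lower in siLINC01186 without overlap, and did not pass (log2 fold change -0.46, adjusted p = 1.00, edgeR). SOCS7 was higher in replicate 2 (log2 0.50, adjusted p = 0.00282, edgeR, and 0.137 by DESeq2's Wald test). JAK3, a kinase of blood cells, stood at 7.58, 16.9, 5.39 and 18.5 CPM (log2 1.45, adjusted p = 1.67e-13, edgeR). TYK2, the partner of JAK1 at interferon receptors, stood at 111, 96.4, 104 and 88.2 CPM. PTPN11, the phosphatase SHP2, was lower in replicate 2 at 227, 157, 221 and 112 CPM (log2 -0.75, adjusted p = 6.31e-10, edgeR), and PTPN1 stood at 121, 100, 116 and 103 CPM. Over the 46 genes 6 were higher and 4 lower in replicate 2, or 21.7%, near the background of 17.5%.

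Genes listed as STAT targets were not called between the groups in any of the 3 lists by the fit without a block. That fit called 0% of all genes tested, so the same holds for any list. Of 13 STAT5 targets 12 were tested, with 0 called. At an unadjusted p under 0.05 there were 0, against 1.21% of all genes, and the median log2 fold change was -0.10. MYC stood at 371, 332, 378 and 271 CPM and CCND1 (cyclin D1) at 344, 232, 316 and 131 CPM. By replicate number 6 of the 12 were lower in replicate 2 and 1 higher, against 9.55% and 7.96% of all genes, CCND1 by a log2 difference of -0.91 (adjusted p = 8.44e-16, edgeR). CCND1 kept its call by DESeq2's Wald test (adjusted p = 8.77e-05), and not all others of this list did. Of 15 STAT3 targets, most of them liver acute-phase genes, 9 were tested and 7 had at most 3 counts in every library. TIMP1, a protease inhibitor, stood at 154, 162, 182 and 155 CPM and JUNB at 110, 136, 127 and 101 CPM. All 14 interferon targets were tested with 0 called by group, against 0% of all genes. By edgeR 7 were higher in replicate 2, against 7.96% of all genes, and not all 7 kept their call by DESeq2's Wald test. Of the 7, ISG15 stood at 21.1, 46.9, 27.1 and 33.9 CPM and IFIT1 at 7.22, 16.4, 6.02 and 16.3 CPM, with replicate 2 higher in both groups.

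IGFBP3, the binding protein of insulin-like growth factors, stood at 66.6, 161, 281 and 207 CPM. Both siLINC01186 libraries were above both siNC libraries, with a log2 fold change of 1.10 (standard error 0.37, adjusted p = 1.00, edgeR without a block). It met the study's limits, and it passed adjustment with all genes of at least 1 count (adjusted p = 0.00638, edgeR). Leaving out 1 library moved its log2 fold change, to 0.60 without siNC replicate 1 and 1.86 without siNC replicate 2. It was 0.86 without siLINC01186 replicate 1 and 1.29 without siLINC01186 replicate 2. The siNC libraries differed from each other by more than the siLINC01186 libraries did. The log2 difference was 2.07 in replicate 1 and 0.36 in replicate 2, while STAT5A differed by -0.18 and -0.10.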

How the data were processed

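The authors deposited unnormalized read counts and TPM per gene for each of the 4 libraries. The submitters' processing notes name HISAT2, TopHat2, Bowtie2 and HISAT and the build hg19, with no role or version, and the counting program, annotation and strand setting are not given in the sources used here. Groups and replicate numbers came from the sample titles. The study calls the repeats biological and the labels name no separate cultures, so p-values by group measure the spread between these libraries. Libraries of a group differed by a chi-square per gene of 26.1 in siNC and 30.5 in siLINC01186. In the edgeR fits by replicate number and with the block, the spread was pooled over all genes. Their p-values and intervals thus do not measure a gene's own spread between libraries.

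Genes whose counts over the libraries came to 5 or more were scaled by TMM and tested with edgeR 4.0.16 (quasi-likelihood, R 4.3.3) without a block, and replicate numbers with the group as a term. CPM used the scaled library size. Log2 differences within replicates used a prior count of 2. Intervals are 95%. The 3-count floor covers counting error only. Alternatives were DESeq2 1.42.0 (Wald test and size factors), edgeR's expression filter with a minimum of 10, at least 1 count, the block, no group term, other level scales and leaving out each library.

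The 9 genes and all lists were chosen with earlier results of these data known. Genes named are the 9, LINC01186, IGFBP3, and per list those 2 with the highest siNC TPM plus at most 4 with an unadjusted p under 0.05 by group or an adjusted p under 0.05 by replicate. Markers and the GHR and PRLR counts were named outside this rule, after their values were seen. Some of the genes so selected, and the gene nearest STAT5A in profile, are not reported here. Promoters and transcripts were read with Python 3.11.15.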

Additional observations from a re-analysis of the deposited data

How the results depend on the processing

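None of the 9 genes was called between siLINC01186 and siNC under the 5 other settings or without any 1 library. The smallest adjusted p under the 5 settings was 0.203, for SOCS2 with the replicate block. The adjusted count over all genes, 0, became 1 by DESeq2's Wald test, 5 with at least 1 count, 278 with the replicate block and 0 to 6 without 1 library. The unadjusted count, 289, became 92 by DESeq2's Wald test, 150 with the expression filter, 464 with at least 1 count, 2005 with the replicate block and 365 to 644 without 1 library. At the study's limits the count of 181 became 27 by DESeq2's Wald test, 46 with the filter and 254 to 387 without 1 library.

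Leaving out siNC replicate 2 turned the direction of STAT2, STAT3, STAT6, SOCS3 and JAK1, siNC replicate 1 that of STAT5B, siLINC01186 replicate 1 that of STAT6, CISH and JAK1, and siLINC01186 replicate 2 that of STAT3 and STAT5B. The log2 fold change ranged from -0.33 to 0.0078 for STAT2, -0.0888 to 0.0771 for STAT3, -0.0542 to 0.12 for STAT5B, -0.0901 to 0.29 for STAT6, -0.35 to 0.21 for CISH, -0.23 to 0.18 for SOCS3 and -0.30 to 0.14 for JAK1. STAT5A ranged from -0.20 to -0.11 and SOCS2 from -0.82 to -0.24, so these 2 were lower without any 1 library. A lone library in a group was assumed to vary like the other group.

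Same-numbered libraries deviated together, with a correlation of 0.324, and the first component, 49.2% of the variance, separated the numbers. With 2 pairs the numbers are not shown to pair the samples. With the replicate block SOCS2 had an adjusted p of 0.203 (edgeR) and LIFR one of 3.52e-04 (edgeR), and IL11 (2.83e-04), IL27RA (0.00655) and CCND1 (0.00183) passed as well, all 4 lower in siLINC01186. IGFBP3 passed with the block (1.20, adjusted p = 1.73e-22, edgeR), with at least 1 count (1.10) and without siNC replicate 2 (1.86).

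Between replicates the count of 4191 became 929 by DESeq2's Wald test, 2754 with the filter and 2158 without the group term. JAK1 lost its call by DESeq2's Wald test and without the group term, and STAT6 also with the filter and with at least 1 count. Fits of this comparison and of the block without 1 library leave no residual spread and were not run. Without the largest gene, mean TPM of STAT5B was 78.3 in siNC and 79.6 in siLINC01186, where the deposited means were 77.1 and 70.8, and STAT6 turned likewise.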

Other observations

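The 3′UTRs of the 9 genes were searched for the 7-base sites that pair with the seed of 1 of the siRNA oligos against LINC01186. ACTGCAT, which pairs with the antisense strand, stood once in STAT3 and once in JAK1, and 12.3% of 19560 genes hold it in their longest 3′UTR. TCACTTA, which pairs with the other strand, stood in 0 of the 9, against 11.1% of genes. STAT2, STAT5A, STAT5B, STAT6, CISH, SOCS2 and SOCS3 held neither site. The oligo in each library is not in the labels, so no comparison was made.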
